A study of Mus musculus with 180 samples.

Results

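The Myb and Myc families examined here are 10 transcription factor genes, chosen by name and looked up among the 14825 genes of a single-cell expression table. They are the Myb genes Myb, Mybl1 and Mybl2, the Myc genes Myc, Mycn and Mycl1, the common partner Max, and Mxd1, Mxd4 and Mxi1 of the Mad group. All 10 were listed in the table, Mycl1 under its older symbol (the current symbol is Mycl).

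Myc proteins bind DNA only as pairs with Max, at the E-box letters CACGTG, and drive genes of ribosome production, nucleotide synthesis and metabolism. Proteins of the Mad group pair with the same partner, recruit the Sin3 corepressors and oppose Myc at shared sites, so that the balance of the groups is often read as a balance of growth against quiescence or differentiation. Myb is required for definitive haematopoiesis in the fetal liver and bone marrow, Mybl2 joins the MuvB complex to activate mitotic genes in dividing cells, and Myc and Mycn together sustain haematopoietic stem cells (HSC).

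The cells came from a study of Hoxb5, a homeobox gene that marks long-term HSC, in multipotent progenitors (MPP), and all mice were C57BL/6. The 47 CD11b+CD48+SK cells (labelled CD48+Mac1+SK, Mac1 being CD11b, SK meaning Sca1+c-kit+) were donor-derived cells sorted from primary recipients at Week 8 post-transplantation. Their donors carried Mx1cre and the Rosa LSL-Hoxb5-EGFP allele, in which Cre under the interferon-responsive Mx1 promoter, induced with pIpC, removes the stop before Hoxb5, and the MPP were given to irradiated CD45.1+ mice. The 41 WT-MPP and the 36 BM HSC (bone marrow HSC) were from 8-week-old mice labelled Hoxb5LSL/+, and the 56 FL HSC from Day14.5 fetal livers of the same genotype, sorted from CD45.2+ cells without lineage markers as Sca1+, c-Kit+, Mac1+ and CD150+. The labels name no transplantation for these 3 populations, and the study sorted MPP by another gate, as cells without CD48 and CD11b. Hoxb5 induction, pIpC, transplantation, irradiation of the host and sort gate thus cannot be told apart in any comparison with the CD11b+CD48+SK cells. Likewise, embryonic stage, tissue and sort gate cannot be told apart for the FL HSC.

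The labels tie no cell to an animal, which leaves 1 sample per population, so that differences have no replicate check and were not tested. Shares of cells carry 95% exact Clopper-Pearson intervals, which cover the counting of cells only. The level is TPM (a unit per transcript length, scaled to the same total in every cell), detected means a TPM of 1 or more, and a difference is the difference between populations in the mean over cells of log2(TPM+1). The number of reads per cell is unknown from TPM, and the number of genes detected per cell stood in for it, with medians of 3844 in WT-MPP, 4441.5 in BM HSC, 4514 in CD11b+CD48+SK cells and 5206.5 in FL HSC. Fewer transcripts in a cell and a lower chance of capturing them cannot be told apart in these values.

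Hoxb5 itself was detected in 7 of 41 WT-MPP, 8 of 36 BM HSC, 32 of 56 FL HSC and 43 of 47 CD11b+CD48+SK cells. Of the genes behind the sort, Cd48 was detected in 100% of CD11b+CD48+SK cells but Itgam, which encodes CD11b, in 36.2% of them and in 16.1% of FL HSC. Of the stem cell markers, Fgd5 was at 0 in every one of the CD11b+CD48+SK cells, while Mecom was detected in 6.38%, Hlf in 17% and Procr in 21.3% of them. In the other 3 populations the shares were 34.1% or more for Mecom, 77.8% or more for Hlf and 75% or more for Procr. The mast cell and basophil genes Cpa3 and Mcpt8 were both detected in CD11b+CD48+SK cells, in 87.2% and 36.2% of them, and each in at most 13.9% of any other population. The globin gene Hbb-b1 was detected in 98.2% of FL HSC and in at most 38.9% of the others.

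Myc and Mycn stood in opposite order across the populations. Myc was highest in CD11b+CD48+SK cells and lowest in FL HSC, while Mycn was highest in FL HSC and lowest in CD11b+CD48+SK cells. Both are oncogenes of the same protein family that can replace each other in many settings. In GRCm38, Myc lies on chromosome 15 (chr15:61985391-61990374, + strand) and Mycn on chromosome 12 (chr12:12936093-12941914, - strand), and no annotated gene overlaps either of them.

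Myc was detected in all 47 CD11b+CD48+SK cells, at 1.24 TPM in the lowest, 599.7 TPM at the median and 3892 TPM in the highest. In WT-MPP it was detected in all 41 cells, with a lowest level of 1.12 TPM, a median of 343 TPM and a highest level of 1751 TPM. In BM HSC it was detected in 35 of 36 cells, from 0.374 TPM through a median of 264 TPM to 2296 TPM. FL HSC differed from the other 3 populations, since Myc was detected in 30 of 56 cells (53.6%, interval 39.7 to 67.0%), and the levels ran from 0 through a median of 34.6 TPM to 1377 TPM. The lowest level among the 30 FL HSC with Myc was 25.4 TPM, so that no FL HSC lay between the detection limit and that level. The contrast was smaller at a TPM of 10 or more, with shares of 72.2% in BM HSC, 80.5% in WT-MPP and still 53.6% in FL HSC. The mean level was 121 TPM in FL HSC, and then came to 468 in BM HSC and 552 in WT-MPP and to 756 TPM in CD11b+CD48+SK cells.

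Mycn was detected in 16 of 47 CD11b+CD48+SK cells (34%, interval 20.9 to 49.3%), with levels from 0 through a median of 0.238 TPM to 280 TPM. It was detected in 34 of 41 WT-MPP (82.9%, interval 67.9 to 92.8%), with a median of 13.6 TPM and a highest level of 885 TPM. In BM HSC it was detected in 35 of 36 cells, with a median of 252 TPM and a highest level of 1342 TPM. In FL HSC it was detected in 54 of 56 cells, from 0.666 TPM through a median of 326 TPM to 1767 TPM. The WT-MPP share rested on low values, since 51.2% of WT-MPP had Mycn at a TPM of 10 or more, against 83.3% of BM HSC. The mean levels were 359 TPM in FL HSC, 287 in BM HSC, 175 in WT-MPP and 36.8 TPM in CD11b+CD48+SK cells.

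In the order of either gene, neighbouring populations overlapped in their quartile ranges. The ends of the order did not, for the middle range of Myc was 419 to 917 TPM in CD11b+CD48+SK cells and 0 to 127 TPM in FL HSC, and that of Mycn was 0 to 59.6 TPM and 107 to 453 TPM in the same populations. Among the 10856 genes that passed the filter, meaning that 10% or more of the cells of some population had them, the mean level of Myc lay at the 98.1 percentile in CD11b+CD48+SK cells and at the 83.3 percentile in FL HSC. Mycn lay at the 66.3 percentile in CD11b+CD48+SK cells and at the 95 percentile in FL HSC.

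**Figure D1:**
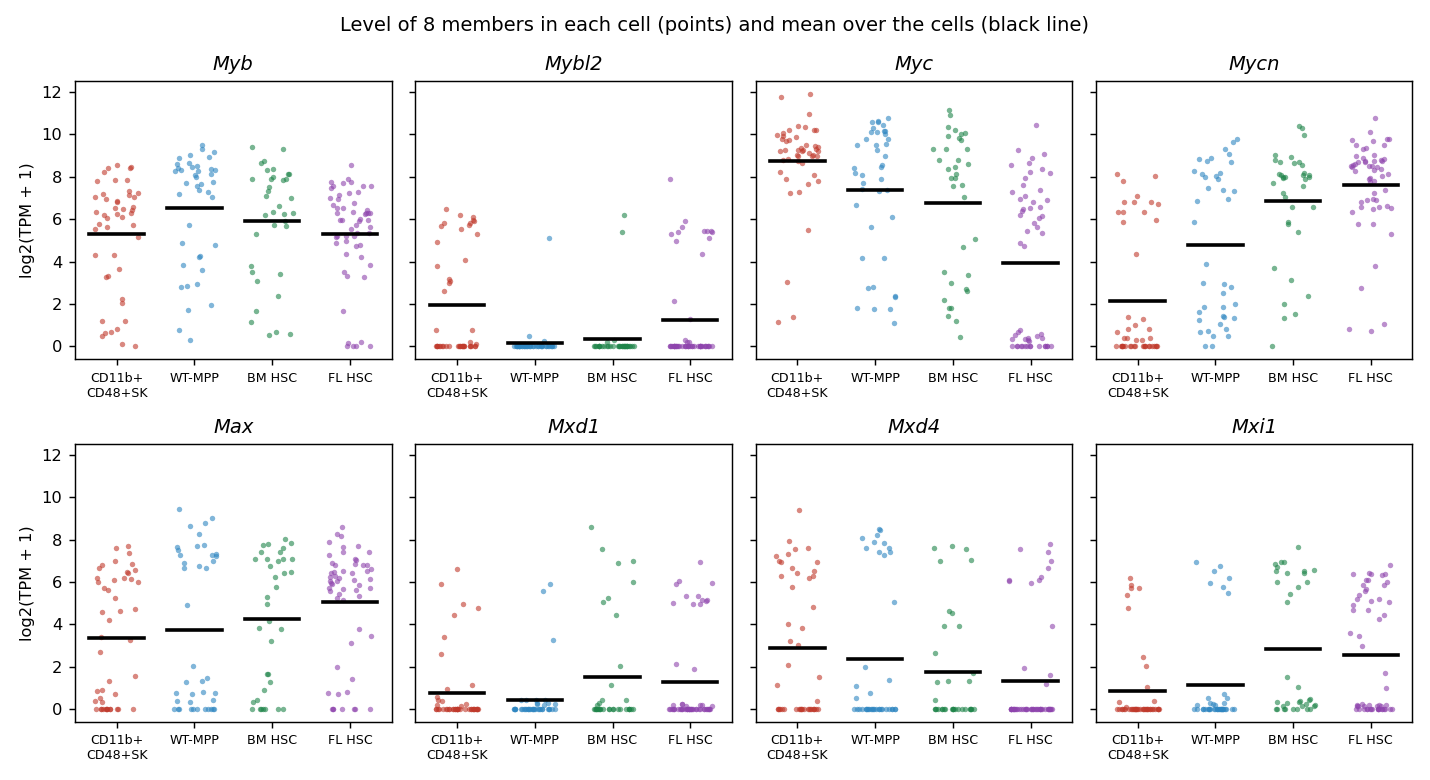
Level of 8 members in each cell, as log2(TPM + 1) on the vertical axis, by population. Each point is 1 cell and each black line the mean over the cells of a population. The mean of Myc is 8.77 in CD11b+CD48+SK cells and 3.91 in FL HSC, and that of Mycn is 2.16 and 7.60.

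The summed level of Myc and Mycn varied less between populations than either gene. Its median was 404 TPM in FL HSC, 436 in WT-MPP, 508 in BM HSC and 616 TPM in CD11b+CD48+SK cells, and its mean on the log2 scale was 8.28, 8.44, 8.58 and 8.97 in that order. Of the summed mean level, Myc made up 25.2% in FL HSC, 62.0% in BM HSC, 75.9% in WT-MPP and 95.4% in CD11b+CD48+SK cells. The populations therefore differed more in which of the 2 genes was measured than in their sum.

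Within single cells the same division was seen. Myc exceeded Mycn in 45 of 47 CD11b+CD48+SK cells (95.7%, interval 85.5 to 99.5%), in 34 of 41 WT-MPP (82.9%, interval 67.9 to 92.8%), in 22 of 36 BM HSC (61.1%, interval 43.5 to 76.9%) and in 12 of 56 FL HSC (21.4%, interval 11.6 to 34.4%). Both genes were detected together in 34 of 36 BM HSC and 34 of 41 WT-MPP, while 31 of 47 CD11b+CD48+SK cells had Myc only and 25 of 56 FL HSC had Mycn only. Part of the joint detection rested on low values, since the lower quartile of Mycn was 1.62 TPM in WT-MPP. That of Myc was 8.87 TPM in BM HSC. No CD11b+CD48+SK cell and no WT-MPP had Mycn only, which allows shares of up to 6.38% and 7.32%, taken as 3 cells of the total. Only 1 cell of the 180, a FL HSC, had neither gene at the detection limit. Within a population the 2 genes had little relation over cells, with a Spearman's rho of -0.16 in FL HSC, 0.02 in CD11b+CD48+SK cells, 0.18 in WT-MPP and 0.22 in BM HSC, each over the cells of 1 population that share their sort and preparation.

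**Figure D2:**
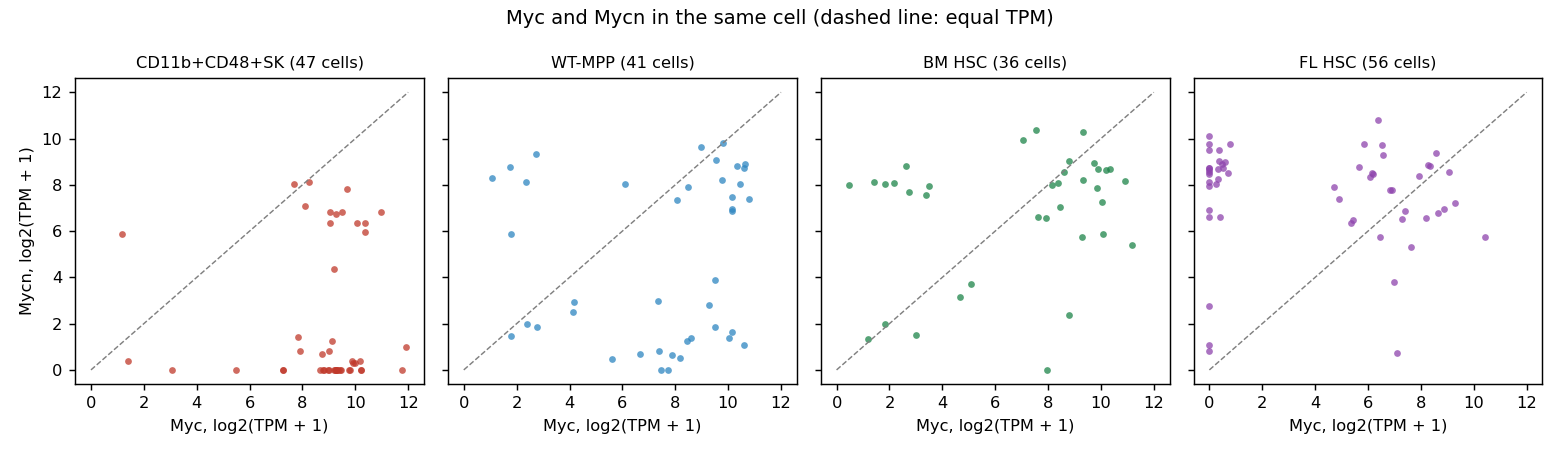
Myc (horizontal axis) and Mycn (vertical axis) in the same cell, both as log2(TPM + 1), in 1 panel for each population. Each point is 1 cell and the dashed line marks equal TPM. Cells above the line, with more Mycn than Myc, number 44 of 56 FL HSC, 14 of 36 BM HSC, 7 of 41 WT-MPP and 2 of 47 CD11b+CD48+SK cells.

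The Mycn start region is shown because this gene, unlike the other members with a RefSeq promoter entry, held the E2F-type letters TTTCGCGC and the letters TTTGAA of the cell cycle homology region (CHR), to which the MuvB complex binds. The 200 bases before the RefSeq start of Mycn (GRCm38.p6, chr12:12941837-12942036, - strand) read as follows, with the matches in capitals, both of them on the opposite strand.
Mycn: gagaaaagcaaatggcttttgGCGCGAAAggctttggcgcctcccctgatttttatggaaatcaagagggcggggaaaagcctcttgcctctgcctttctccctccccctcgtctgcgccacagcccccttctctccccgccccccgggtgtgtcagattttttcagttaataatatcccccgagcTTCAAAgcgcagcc
Counted from the start, the first match began at -179 and the second at -14. Over 32851 promoter entries of 300 bases, searched on both strands, TTTCGCGC was found in 0.323% and TTTGAA in 17.9%. Promoter entries were found for 8 of the 10 members, in 10 windows. The core Myb letters AACNG were present in windows of all 8, and in 80.3% of all entries.

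The other Myc gene, Mycl1, was not detected in any cell. It had no value above 0 in CD11b+CD48+SK cells, WT-MPP and FL HSC, and 1 BM HSC at 0.553 TPM. For the detected share, 0 of 47, 41, 36 and 56 cells allows up to 6.38%, 7.32%, 8.33% and 5.36% respectively by the same rule.

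Max, the partner shared by Myc and Mad proteins, was detected in every population and followed the order of Mycn in mean log2(TPM+1). It was detected in 46 of 56 FL HSC (82.1%, interval 69.6 to 91.1%), 26 of 36 BM HSC (72.2%, interval 54.8 to 85.8%), 23 of 41 WT-MPP (56.1%, interval 39.7 to 71.5%) and 28 of 47 CD11b+CD48+SK cells (59.6%, interval 44.3 to 73.6%). The median levels were 65.2 TPM, 34.2 TPM, 1.76 TPM and 9.60 TPM in the same order, and the highest levels 388 TPM, 264 TPM, 684 TPM and 209 TPM, with the lowest at 0 in each population. The intervals of neighbouring populations overlapped. The order depended on the average, since the mean level in TPM was highest in WT-MPP, at 106, against 81.7 in FL HSC, 73.7 in BM HSC and 41.4 in CD11b+CD48+SK cells. In either average the CD11b+CD48+SK cells, the population with the most Myc, had the least Max.

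Max and Mxd4 were the 2 members whose promoter window held the E-box CACGTG, and are shown for that reason with the E-box in capitals. The window of Max (GRCm38.p6, chr12:76962246-76962308, - strand) ends 3 bases after the start, and that of Mxd4 (GRCm38.p6, chr5:34187901-34187960, - strand) covers the bases -250 to -191.
Max: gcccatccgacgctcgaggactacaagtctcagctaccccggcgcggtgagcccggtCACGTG
Mxd4: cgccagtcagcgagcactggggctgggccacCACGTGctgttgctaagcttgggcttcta
The E-box began at -3 in Max and at -219 in Mxd4. The same letters were found in 7.15% of all promoter entries. The match says only that these letters stand in the window.

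The Mad genes, which encode repressors that compete with Myc for Max, did not share an order. Mxd4 stood highest in CD11b+CD48+SK cells, as Myc did, while Mxi1 and Mxd1 stood highest in BM HSC. The gene that encodes Mxd3, a Mad protein linked to S phase and no member of the 10, was detected in 5 of 47 CD11b+CD48+SK cells and 5 of 56 FL HSC and in no WT-MPP or BM HSC.

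Mxd4 was detected in 24 of 47 CD11b+CD48+SK cells (51.1%, interval 36.1 to 65.9%), 15 of 41 WT-MPP (36.6%, interval 22.1 to 53.1%), 14 of 36 BM HSC (38.9%, interval 23.1 to 56.5%) and 14 of 56 FL HSC (25%, interval 14.4 to 38.4%). Its median was 1.23 TPM in CD11b+CD48+SK cells and 0 in the other 3 populations, and its highest levels were 663 TPM, 355 TPM, 207 TPM and 219 TPM. By mean level in TPM, WT-MPP (64.5) lay above CD11b+CD48+SK cells (55.5), BM HSC (25.9) and FL HSC (20.6), so that the first 2 places changed with the average.

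Mxi1 was detected in 28 of 56 FL HSC (50%, interval 36.3 to 63.7%) and 17 of 36 BM HSC (47.2%, interval 30.4 to 64.5%), against 7 of 41 WT-MPP (17.1%, interval 7.15 to 32.1%) and 9 of 47 CD11b+CD48+SK cells (19.1%, interval 9.15 to 33.3%). Its median was 0.605 TPM in FL HSC, 0.369 in BM HSC and 0 in WT-MPP and CD11b+CD48+SK cells, with highest levels of 111 TPM, 197 TPM, 121 TPM and 70.8 TPM. Thus both HSC populations had Mxi1 in more of their cells than WT-MPP or CD11b+CD48+SK cells did, although the interval of BM HSC overlapped theirs at the end and the highest WT-MPP lay above the highest FL HSC.

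Mxd1, a gene induced in maturing myeloid cells, was detected in 10 of 36 BM HSC (27.8%, interval 14.2 to 45.2%), 14 of 56 FL HSC (25%, interval 14.4 to 38.4%), 8 of 47 CD11b+CD48+SK cells (17%, interval 7.65 to 30.8%) and 3 of 41 WT-MPP (7.32%, interval 1.54 to 19.9%). Its median was 0 in each population, and its highest levels were 382 TPM, 122 TPM, 96.1 TPM and 59.5 TPM. All 4 intervals overlapped. Counting Mxd1, Mxd4 and Mxi1 together, no Mad gene was detected in 20 of 41 WT-MPP, 10 of 36 BM HSC, 13 of 56 FL HSC and 17 of 47 CD11b+CD48+SK cells, and all 3 were detected in 0, 4, 1 and 2 of them.

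**Figure D3:**
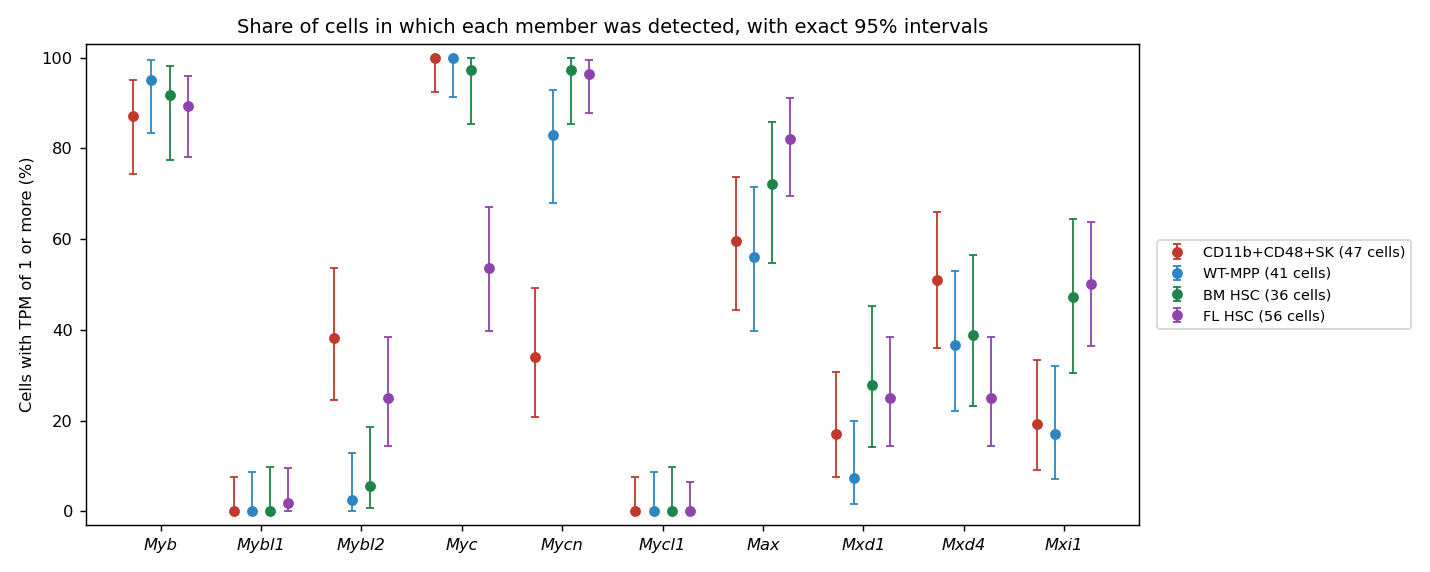
Share of cells in which each of the 10 members was detected (TPM of 1 or more), in percent, by population. Points are shares and bars are exact 95% intervals, which cover the counting of cells only. At this limit Mycn is detected in 34% of CD11b+CD48+SK cells and Myc in 53.6% of FL HSC, each below the intervals of the other 3 populations. At a TPM of 10 or more, Myc is detected in 72.2% of BM HSC and still in 53.6% of FL HSC.

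Myb, the founding gene of its family, was detected in most cells of every population and was highest in WT-MPP. It was detected in 39 of 41 WT-MPP, with a lowest level of 0.239 TPM, a median of 206 TPM and a highest level of 722 TPM. In BM HSC it was detected in 33 of 36 cells, with a median of 88.6 TPM and a highest level of 684 TPM, and in FL HSC in 50 of 56 cells, with a median of 61.1 TPM and a highest level of 374 TPM. In CD11b+CD48+SK cells it was detected in 41 of 47 cells, with a median of 74.8 TPM and a highest level of 378 TPM. The lowest 2 populations, FL HSC and CD11b+CD48+SK cells, lay within 0.035 of each other in mean log2(TPM+1), and the sign of their difference changed under 4 of 5 alternative settings. Part of Myb (chr10:21124935-21160984, GRCm38) is overlapped by the antisense gene Gm26577, which is not listed in the table, and reads of the 2 strands cannot be told apart here.

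Mybl2, the Myb gene of dividing cells, was detected in few cells, nearly all of them CD11b+CD48+SK cells or FL HSC. It was detected in 18 of 47 CD11b+CD48+SK cells (38.3%, interval 24.5 to 53.6%) and 14 of 56 FL HSC (25%, interval 14.4 to 38.4%), against 2 of 36 BM HSC (5.56%, interval 0.680 to 18.7%) and 1 of 41 WT-MPP (2.44%, interval 0.0617 to 12.9%). Its median was 0 in each population, and its highest level was 89.6 TPM for CD11b+CD48+SK cells and 241 TPM for FL HSC, against 72.8 TPM for BM HSC and 33.5 TPM for WT-MPP. The intervals of CD11b+CD48+SK cells and FL HSC overlapped, and that of CD11b+CD48+SK cells lay above those of BM HSC and WT-MPP. Mybl1, the third gene of the family, best known from the testis, was detected in 1 of the 180 cells, a FL HSC at 5 TPM.

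The cells with Mybl2 were also the cells in which most genes of DNA replication were detected. Of 24 S-phase genes, a median of 21 was detected in the 18 CD11b+CD48+SK cells with Mybl2 (from 12 to 24) and a median of 10 in those without it (from 2 to 24). In FL HSC the medians were 22.5 (from 15 to 24) with Mybl2 and 12 (from 6 to 20) without. The only WT-MPP with Mybl2 had 16 of these genes, where the other WT-MPP had from 2 to 9, and the 2 BM HSC with Mybl2 had 21 and 22, where the others had from 2 to 20. Of 28 genes that the MuvB complex is known to regulate in mitosis, CD11b+CD48+SK cells with Mybl2 had a median of 10 and those without it 2, and FL HSC with Mybl2 had 18 and those without it 4.

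The number of genes detected per cell moved with Mybl2 too, with medians of 5171 and 4235 in CD11b+CD48+SK cells with and without it and of 5557 and 5007 in FL HSC. The only WT-MPP with Mybl2 had 4751 genes, the most of its population, against a median of 3834.5 without it. The 2 BM HSC with Mybl2 had a median of 5858 genes, against 4434.5 without it. Among cells with 4500 to 5500 genes, the median number of S-phase genes was 20.5 in the 12 CD11b+CD48+SK cells with Mybl2 and 12 in the 7 without, and 18 in the 6 FL HSC with it and 12 in the 25 without. Of the MuvB targets, the same 12 and 7 CD11b+CD48+SK cells had medians of 9.5 and 6, and the same 6 and 25 FL HSC of 21.5 and 3. In FL HSC the gap in S-phase genes thus was 6 in place of 10.5. Even within this range the FL HSC with Mybl2 had more genes (a median of 5312.5 against 4997). In CD11b+CD48+SK cells these medians were 4978 with Mybl2 and 4554 without, so that numbers of genes were not equal in either population.

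**Figure D4:**
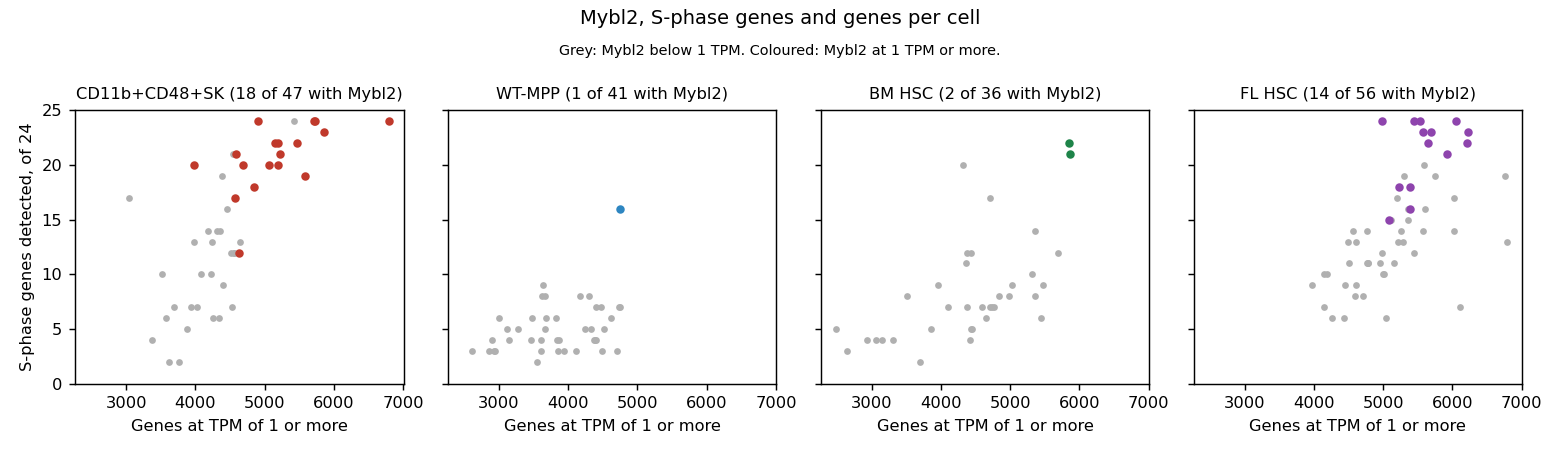
Number of 24 S-phase genes detected (vertical axis) against the number of all genes detected (horizontal axis), in 1 panel for each population. Each point is 1 cell, coloured where Mybl2 is at a TPM of 1 or more and grey where it is below. Coloured points lie at 12 or more S-phase genes and towards higher numbers of genes in every panel.

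Mycn had the opposite relation to these lists in FL HSC. Over the 56 FL HSC, Spearman's rho of Mycn with the number of MuvB target genes detected was -0.55, and with the number of S-phase genes -0.44, while its rho with the number of all genes per cell was -0.36. Among the 31 FL HSC with 4500 to 5500 genes the rho with MuvB target genes was -0.56. For Myc in FL HSC the values were -0.14 with MuvB target genes and 0.25 with S-phase genes, and in BM HSC Myc had a rho of 0.49 with S-phase genes and of 0.48 with the number of all genes. Among cells with 4500 to 5500 genes, Myc had a rho of -0.10 with S-phase genes and -0.34 with MuvB target genes in the 31 FL HSC, and of -0.14 with S-phase genes in the 14 BM HSC, so that its positive values were not kept at like numbers of genes. These coefficients describe cells of 1 sort each.

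Members had little relation with each other over the cells of a population. Among the 8 members that passed the filter, 28 pairs in each of 4 populations gave 112 values of Spearman's rho, from -0.32 to 0.38 with a median of 0.02, and 0 of them lay beyond 0.4 in either direction. The largest was Max with Mxd4 in BM HSC, over 36 cells of which 12 had both genes. The genes most like each member over cells were ranked by the mean rho within the 4 populations. Srm, the spermidine synthase gene and a listed Myc target, came first for Myc at 0.38, followed by Tomm40l at 0.37. With ranks regressed on genes per cell, and with Pearson's r, Srm was not among the first 3 and Gsto1 led. The rho of Srm with Myc ran from 0.14 in CD11b+CD48+SK cells to 0.55 in BM HSC. The first genes for the other members were Pitrm1 for Max at 0.36, Calm3 for Myb at 0.33, Ccna2 for Mxi1 at 0.32, Lcp1 for Mxd4 at 0.29 and Abhd16a for Mycn at 0.29. All of these are weak, and Mybl2 and Mxd1 were detected in too few cells to be ranked.

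The differences in mean log2(TPM+1) between populations were set beside those of all 10856 genes that passed the filter, of which Mybl1 and Mycl1 were not part. A gene is counted when its means differed by 1 or more. The median difference over all genes was not 0 in most comparisons, at 0.21 for CD11b+CD48+SK cells minus WT-MPP, -0.0010 minus BM HSC and -0.32 minus FL HSC, 0.56 for FL HSC minus WT-MPP, 0.31 for FL HSC minus BM HSC and -0.22 for WT-MPP minus BM HSC.

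Against WT-MPP, the wild-type cells of the stage that was transplanted, CD11b+CD48+SK cells had 2 of the 8 members higher, with 19% of all genes, and 2 lower, with 5.01% of all genes. Mybl2 was 1.80 higher and Myc 1.37 higher, and the lower members were Mycn at -2.62 and Myb at -1.24, all in log2 units. The Myc difference fell short of 1 on the log2 of the mean TPM plus 1, at 0.45, and in cells with 3500 to 5500 genes, at 0.19. Max, Mxd1, Mxd4 and Mxi1 differed by less than 0.53 in either direction.

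Against BM HSC, CD11b+CD48+SK cells had 3 members higher, with 13.4% of all genes, and 2 lower, with 11.8%. Myc was 2.01, Mybl2 1.60 and Mxd4 1.16 higher, and the lower ones were Mycn at -4.69 and Mxi1 at -1.97. On the log2 of the mean TPM plus 1 Myc was 0.69 higher. Against FL HSC they had 2 members higher, with 4.02% of all genes, and 3 lower, with 20.9%. Myc was 4.86 and Mxd4 1.55 higher, and the lower ones were Mycn at -5.44, Max at -1.73 and Mxi1 at -1.71.

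FL HSC had 4 members higher than WT-MPP, with 33.9% of all genes, and 3 lower, with 3.08%. Mycn was 2.82, Mxi1 1.42, Max 1.34 and Mybl2 1.12 higher, and the lower ones were Myc at -3.48, Myb at -1.20 and Mxd4 at -1.02. The Max difference turned to -0.38 on the log2 of the mean TPM plus 1. Against BM HSC, the HSC of the adult, FL HSC had 0 members higher, with 25.6% of all genes, and 1 lower, with 5.44%, which was Myc at -2.85. Mybl2 and Max were 0.92 and 0.84 higher in FL HSC, short of 1, and Mycn 0.75 higher.

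WT-MPP had 0 members higher than BM HSC, with 2.67% of all genes, and 3 lower, with 14.49%. These were Mycn at -2.07, Mxi1 at -1.69 and Mxd1 at -1.11, while Myc was 0.64 and Myb 0.62 higher in WT-MPP. On the log2 of the mean TPM plus 1 the Mycn difference was -0.71. These comparisons share populations, so that their values are not independent of each other.

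Mcpt8, a basophil granule gene, was detected in 17 CD11b+CD48+SK cells. In the 30 cells without it, mean log2(TPM+1) was 8.44 for Myc and 2.21 for Mycn, against 8.77 and 2.16 in all 47, and Mybl2 was detected in 9 of 30. The members past a difference of 1 against BM HSC and FL HSC were the same 5 and 5 genes without the cells with Mcpt8, and against WT-MPP Mxd4 was added to the 4. In cells with 3500 to 5500 genes, 15 of the 48 member differences moved by 0.5 or more and 21 of the 25 past 1 stayed past it. The 4 that did not were Myc for CD11b+CD48+SK cells minus WT-MPP, Max and Mybl2 for FL HSC minus WT-MPP and Mxd1 for WT-MPP minus BM HSC. The part of globin RNA and stem cell markers in the differences was not tested.

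Lists of partner and target genes, written from general knowledge, were then described by their counts and medians. The list of Myc targets, 46 genes in the filter, held genes of nucleotide synthesis, ribosome assembly and metabolism. It also held Cdkn1a, known as repressed by Myc. The list did not have the order of Myc alone across the populations. It was higher in CD11b+CD48+SK cells than among WT-MPP, with a median difference of 1.22 against 0.21 for all genes. There 28 of the 46 genes were higher by 1 or more and 0 lower, beside 19% and 5.01% of all genes. It was also higher in FL HSC, the population with the least Myc and the most Mycn. Over WT-MPP the median was 1.42 against 0.56 for all genes (31 higher, 0 lower, beside 33.9% and 3.08% of all genes). Over BM HSC it was 0.75 against 0.31 (21 higher, 1 lower, beside 25.6% and 5.44%). For CD11b+CD48+SK cells minus FL HSC the median was -0.13 against -0.32 for all genes. There Myc was 4.86 higher and Mycn 5.44 lower, and their summed level had log2 means of 8.97 and 8.28. A relation of the list to either gene or to their sum was not tested. In that comparison 0 genes were higher and 3 lower, beside 4.02% and 20.9% of all genes. The sizes depended on the processing. On the log2 of the mean TPM plus 1 the median over WT-MPP was 0.31 for CD11b+CD48+SK cells, against -0.32 for all genes, and 0.17 for FL HSC, against -0.10. In cells with 3500 to 5500 genes these medians were 0.71 against 0.04 and 0.72 against 0.30.

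The genes of this list with the largest differences for CD11b+CD48+SK cells minus WT-MPP were Impdh2, of guanine nucleotide synthesis, at 3.16, Shmt2, of mitochondrial one-carbon metabolism, at 2.90, and Srm at 2.53. At the low end were Polr1b, a subunit of RNA polymerase I, at -0.26, the transferrin receptor gene Tfrc at 0.11 and the translation factor gene Eif4e at 0.24. Between FL HSC and BM HSC the largest were Umps, of pyrimidine synthesis, at 3.19, Impdh2 at 2.75 and the DNA repair gene Apex1 at 1.97, and the lowest the cyclin gene Ccnd2 at -1.05. Against BM HSC, CD11b+CD48+SK cells had 13 of the 46 higher and 2 lower (Ccnd2 at -1.44 and Polr1b at -1.15). The shares of all genes were 13.4% and 11.8%, and the median was 0.51 against -0.0010. WT-MPP had 0 higher and 12 lower than BM HSC, beside 2.67% and 14.49% of all genes, with a median of -0.68 against -0.22.

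The Myc network, partners and regulators of Myc, held 24 genes in the filter beside 6 members. Without the members, 5 of the 24 were higher and 0 lower in CD11b+CD48+SK cells than among WT-MPP, with a median of 0.39 against 0.21 for all genes. Among them was Ruvbl2, an ATPase that binds Myc, at 1.52. FL HSC had 9 of the 24 higher and 1 lower than WT-MPP, and 7 higher and 1 lower than BM HSC. The higher counts lay near the shares of all genes, which were 19% for CD11b+CD48+SK cells over WT-MPP, 33.9% for FL HSC over WT-MPP and 25.6% for FL HSC over BM HSC. Against BM HSC the highest were Zbtb17 (Miz1, a partner through which Myc represses genes) at 2.31, Ruvbl2 at 2.26 and Aurka, a kinase that stabilizes Mycn protein, at 2.21, and the lowest apart from Myc was the glucose-sensing factor gene Mlxip at -1.47, followed by the ubiquitin ligase gene Fbxw7 at -0.99. Sin3a, a corepressor of the Mad proteins, lay at -0.81 in CD11b+CD48+SK cells minus WT-MPP, short of 1, and Sin3b 1.18 higher in them than in BM HSC. CD11b+CD48+SK cells had 2 of the 24 higher and 1 lower than BM HSC, beside 13.4% and 11.8% of all genes. Against FL HSC they had 0 higher and 4 lower, beside 4.02% and 20.9%. WT-MPP had 0 higher and 2 lower than BM HSC, beside 2.67% and 14.49%.

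The list of Myb partners and targets, with 26 genes in the filter beside Myc, lay near all genes in most comparisons. It lay below them for CD11b+CD48+SK cells against either HSC population. For CD11b+CD48+SK cells minus WT-MPP its median was 0.03 against 0.21, with 3 genes higher and 3 lower, beside 19% and 5.01% of all genes. Higher were the myeloperoxidase gene Mpo, at 5.49 (detected in 91.5% and 9.76% of cells), and the T-cell kinase gene Lck at 1.49. Lower were Gata3 at -1.80, the stem cell factor receptor gene Kit at -1.59 and Lmo2 at -1.19. Between FL HSC and BM HSC 6 of the 26 were higher and 3 lower, beside 25.6% and 5.44% of all genes. The higher ones were led by Gfi1, a repressor of HSC proliferation, at 5.25 (detected in 85.7% and 13.9% of cells). Cd34 at 3.11 and the mitotic cyclin gene Ccnb1 at 2.87 followed. Among the lower were the survival gene Bcl2 at -1.53 and Gata3 at -1.18. CD11b+CD48+SK cells had 5 higher and 7 lower than BM HSC, where 13.4% and 11.8% of all genes were higher and lower. They had 2 higher and 8 lower than FL HSC, where these shares were 4.02% and 20.9%. The medians were -0.55 and -0.77, against -0.0010 and -0.32 for all genes.

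The list for the MuvB complex, which Mybl2 joins, held 12 genes beside it. It took in partners such as Tfdp1, E2f5, Rbl1 and Rbl2 as well as subunits such as Lin9, Lin37 and Lin52. Of the 12 genes, 6 were higher and 0 lower in CD11b+CD48+SK cells than among WT-MPP. They were led by Tfdp1, the E2F dimerization partner, at 2.59, Lin52 at 2 and Rbl1, which encodes p107, at 1.80. Rbl2, which encodes p130 of quiescent cells, was at -0.70, and the subunit gene Lin9 at 0.25. FL HSC had 7 higher and 0 lower than WT-MPP, and 5 higher and 0 lower than BM HSC, with E2f5 at 2.05, Lin37 at 1.47 and Rbl1 at 1.41. CD11b+CD48+SK cells had 3 higher and 1 lower than BM HSC, the latter being Rbl2 at -1.14, and 0 higher and 1 lower than FL HSC. WT-MPP had 0 higher and 2 lower than BM HSC. Of all genes, 19% were higher in CD11b+CD48+SK cells and 33.9% in FL HSC than in WT-MPP. Over BM HSC these shares were 13.4% and 25.6%. Lower were 20.9% of all genes for CD11b+CD48+SK cells against FL HSC and 14.49% for WT-MPP against BM HSC.

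The S-phase genes and the mitotic targets of MuvB were higher in CD11b+CD48+SK cells and in FL HSC than in WT-MPP. Of the 24 S-phase genes, 23 were higher in CD11b+CD48+SK cells than among WT-MPP, with a median of 2.55 against 0.21 for all genes. In FL HSC 22 were higher than in WT-MPP, with a median of 2.61 against 0.56. Of all genes, 19% and 33.9% were higher in these comparisons. For CD11b+CD48+SK cells minus FL HSC the S-phase median was -0.22 against -0.32 for all genes. There 0 were higher and 4 lower, beside 20.9% of all genes that were lower. Of the 28 MuvB targets, 11 were higher in CD11b+CD48+SK cells than among WT-MPP and 20 in FL HSC than in WT-MPP, with 0 lower in either. For CD11b+CD48+SK cells minus FL HSC 0 of the 28 were higher and 8 lower, with a median of -0.78 against -0.32 for all genes, although the mean level of Mybl2 was 0.68 higher in CD11b+CD48+SK cells. In cells with 3500 to 5500 genes this median was -0.34 against -0.24, and the 8 of 28 stand beside the 20.9% of all genes that were lower. The lowest of them were the centromere gene Cenpa at -3.47, Ccnb1 at -2.07 and the ubiquitin-conjugating enzyme gene Ube2c at -1.96.

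Against BM HSC, the MuvB targets were higher in 11 of 28 cases in CD11b+CD48+SK cells and in 22 of 28 in FL HSC, with medians of 0.71 and 1.38 and 0 lower in either. The S-phase genes were higher in 20 of 24 and 19 of 24 cases, with medians of 1.66 and 1.86. Of all genes, 13.4% and 25.6% were higher in these comparisons, with medians of -0.0010 and 0.31. WT-MPP lay below BM HSC in the S-phase list, with a median of -0.91, 0 genes higher and 11 lower. Of the MuvB targets 2 were lower and 0 higher, with a median of 0.04. For all genes the median was -0.22, with 2.67% higher and 14.49% lower.

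**Figure D5:**
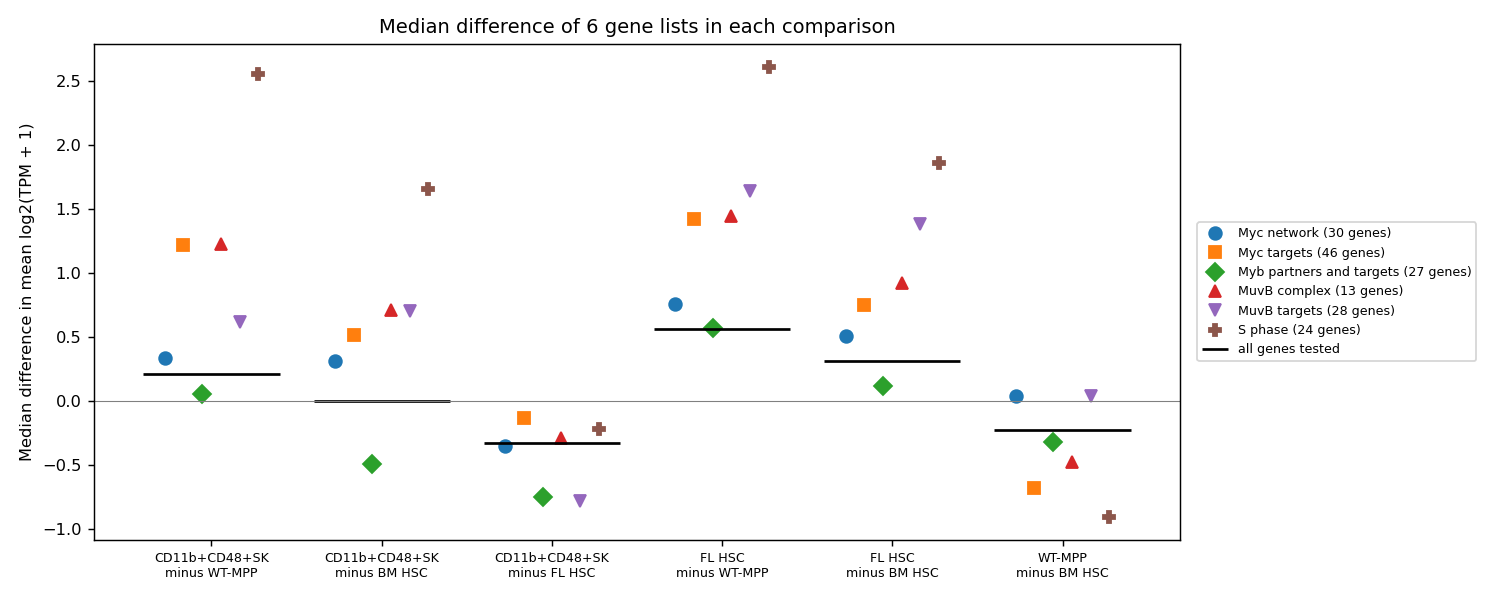
Median difference in mean log2(TPM + 1) of 6 gene lists (vertical axis) in each of the 6 comparisons (horizontal axis). Symbols are list medians, members included, and black lines the median of all genes tested. The Myc targets lie above the black line in the comparisons of CD11b+CD48+SK cells and of FL HSC with either adult population, and near it between the former.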

How the data were processed

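Single cells were amplified and sequenced, with 1 library per cell. Per the labels, the authors aligned reads to mm10 with HISAT2 (version 2.1.0) and used SAMtools (version 0.1.19) and StringTie (version 1.3.4), and the deposited TPM have the same sum in every cell over 14825 genes. Whether reads were counted by strand is not given in the sources used here. Of 181 columns, 1 without a sample was not used. The source label of the FL HSC says bone marrow, and their cell type label, which says fetal liver, was followed.

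Values were averaged as log2(TPM+1) per population, over the 10856 genes that 10% or more of the cells of some population had at 1 TPM or above. Likeness was the mean of Spearman's rho within the 4 populations, for members detected in 20% or more of all cells. Named genes were all members, from each list the 3 highest and the 3 lowest differences, and the 3 most alike genes. Members, lists and rule were chosen with earlier results of these data known, and Mxd3 was named with its values known. Some genes that the rule or the lists name are not reported here. Promoters were RefSeq entries (GRCm38.p6) and gene positions GENCODE's (GRCm38). Python 3.11.15, numpy 2.4.6, pandas 2.3.3, scipy 1.17.1 and matplotlib 3.10.9 were used, and the procedure was tested on simulated data. Alternatives covered the pseudocount, average, scaling, genes per cell, filter and detection limit, and, chosen after seeing the data, cells without Mcpt8 and cells with 4500 to 5500 genes.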

Additional observations from a re-analysis of the deposited data

How the results depend on the processing

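The numbers of members past a difference of 1 stayed within 1.5 times of those given with cells scaled by their median ratio, with no filter and without the cells with Mcpt8. With a pseudocount of 10 they were 2 for CD11b+CD48+SK cells against WT-MPP, 3 against BM HSC and 2 against FL HSC, 3 for FL HSC against WT-MPP and 1 for WT-MPP against BM HSC, the fold of low genes being compressed. For FL HSC against BM HSC, 1 member in the report, they were 3 with a pseudocount of 0.1, 4 on the log2 of the mean TPM plus 1 and 3 in cells with 3500 to 5500 genes.

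Of 25 member differences of 1 or more, 24 kept their sign under all 5 alternatives and 9 stayed past 1 under all of them. The exception was Max between FL HSC and WT-MPP, at -0.38 on the log2 of the mean TPM plus 1, in place of 1.34. The medians of the S-phase list were not run under the alternatives. Of 30 medians of the other lists, 17 moved by 0.5 or more on the log2 of the mean TPM plus 1. The number was 3 in cells with 3500 to 5500 genes, 5 at a pseudocount of 0.1, 6 at 10 and 0 with scaled cells. Differences of Myc and Mycn kept their sign in all 6 comparisons, with ranges of 2.63 to 6.03 and -7.24 to -3.25 for CD11b+CD48+SK cells minus FL HSC. At a TPM of 10 or more the share of cells with Myc was 80.5% in WT-MPP and 72.2% in BM HSC, and that with Mycn 51.2% in WT-MPP. The genes most like a member changed for 2 of 6 members with ranks regressed on genes per cell and for 4 of 6 with Pearson's r. No paired analysis was possible because cell numbers are shared only as names and no test between populations was made. With 36 to 56 cells of unnamed animals per population, differences between animals cannot be told apart from those between populations.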
